A study of Mus musculus with 16 samples.

Results

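The genes described here are the BAG co-chaperones of the mouse, Bag1, Bag2, Bag3, Bag4, Bag5 and Bag6, with the partners of Bag3, namely Hspb8, Hspb1 and Hspa8. They were chosen by name as a gene family and its partners, and make up 9 of the 50600 genes in the deposited tables. A typical BAG protein holds a domain that binds the ATPase part of Hsp70 chaperones. The domain promotes the release of nucleotide, so that the client protein is let go. Bag3 also binds small heat shock proteins such as Hspb8, and with Hsp70 and the ubiquitin ligase Stub1 it sends misfolded clients to autophagy. In astrocytes and muscle this route is known for the clearance of aggregating and mechanically damaged proteins.

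The study asked whether some autosomal genes are expressed from a single allele in some clones and from both in others, and what follows for gene dosage. Hybrid mouse ES cells of the cross 129Sv x Cast/EiJ were differentiated to neural progenitor cells (NPCs), which grow in EGF and FGF2, and each clone was expanded from a single picked colony. RNA-seq was available for 16 libraries of 12 clones. The values used here are the reads on each gene, the reads assigned to each allele and the ratio between the alleles.

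Astrocytes derived from NPC clones, moved for 48 h to medium with BMP4 at 10 ng/mL and FGF2 at 1 ng/mL, made up 1 group of 5 clones, of which Astro_129, Astro_C2 and Astro_G4 were female and Astro_mC3 and Astro_mE6 male. NPCs prepared by poly(A) enrichment, as the astrocytes were, came from the female clone NPC_F5 and the male clones NPC_mG2 and NPC_mG6. The male NPC clones Ch3, Ch5, Ch7 and Ch8 were prepared by ribosomal RNA depletion, with 2 libraries each. Reads on genes numbered 88165502 in Astro_129, 79888544 in Astro_C2, 80241858 in Astro_G4, 78257443 in Astro_mC3 and 93963293 in Astro_mE6, of which 26753109 to 32518327 could be assigned to an allele. They numbered 105892734 in NPC_F5, 69925081 in NPC_mG2 and 81768235 in NPC_mG6, with 21555315 to 32263331 allele-specific. The Ch libraries were shallower, with 20871111 to 30920672 reads and 4193927 to 5971768 allele-specific reads. Outside the Ch clones each clone had 1 library, so that no value of a single astrocyte or poly(A) NPC clone has a replicate, and the Wilson intervals given below cover counting error only. Levels are given as CPM, the reads on a gene scaled to the size of its library, normalised within the 8 poly(A) libraries and within the 8 rRNA-depleted libraries separately, and are not compared between these sets.

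The labelled cell types were checked on marker genes. Gfap, the intermediate filament of astrocytes, was at 1976, 65.4, 223, 165 and 254 CPM in Astro_129, Astro_C2, Astro_G4, Astro_mC3 and Astro_mE6, and at 0.669 to 2.12 CPM in the poly(A) NPCs. Nes, an intermediate filament of progenitors, was at 61.6 to 121 CPM in astrocytes and at 1066 to 1681 CPM in poly(A) NPCs. Of the 8 astrocyte markers 3 were called higher and 1, Aldh1l1, lower in astrocytes, of the 6 progenitor markers 2 were lower, and all 4 proliferation markers were lower, Mki67 by a log2 fold change of -8.43. Male clones carry a single X chromosome, and 0.0882 to 0.281% of its allele-specific reads were assigned to Cast, which gives the rate of wrong assignment.

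The allelic ratio is given as percent Cast, the share of allele-specific reads that came from the Cast allele, where a clone had at least 20 such reads. A ratio under 15% or over 85% is called monoallelic here, 35 to 65% biallelic, and the values between biased. Of the 108 values of 9 genes in 12 clones, 92 had enough reads, and 10 of these were monoallelic, 9 of them toward Cast, against 5.60% of the 135366 ratios of all autosomal genes. The monoallelic values belonged to Bag3 (3 clones), Bag5 (3 clones), Hspb8 (2 clones) and Hspb1 (2 clones). In the 3 clones of Bag5, all toward Cast, the median ratio of the genes within 5 Mb was monoallelic too. Values of the same gene in several clones are not independent, and the difference from the share of all genes was not tested. Another 60 were biallelic and 22 biased, of which 12 were those of Hspa8.

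**Figure D1:**
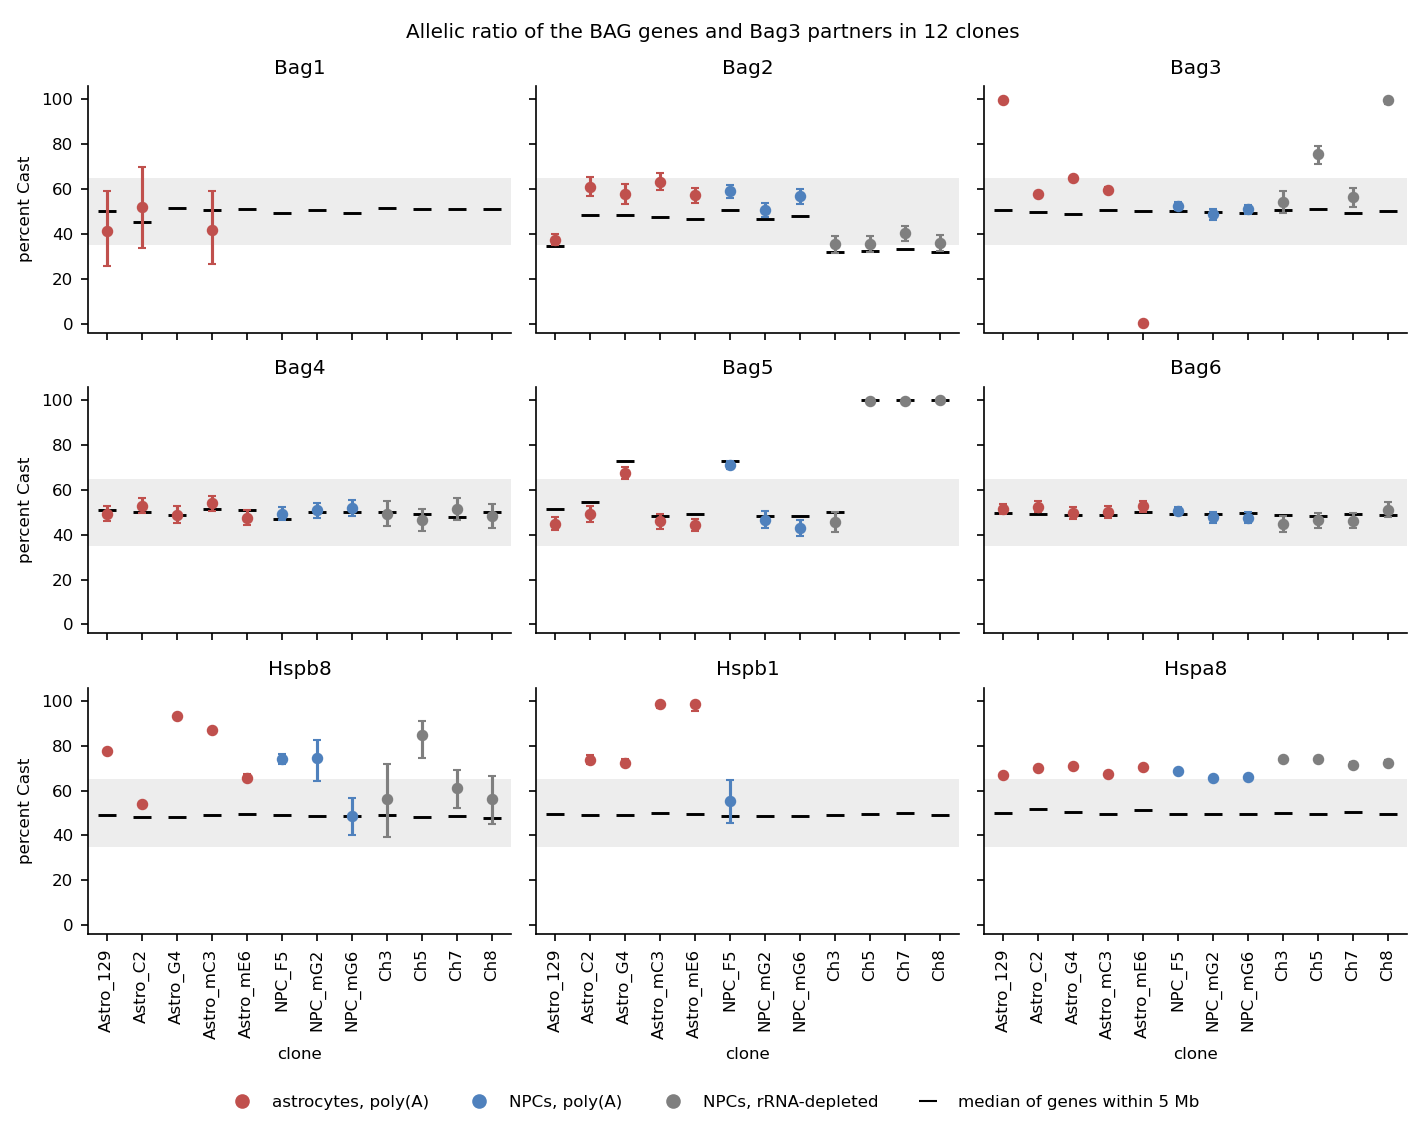
Percent Cast of each gene (panels) in each of the 12 clones, with Wilson 95% intervals as bars, the median of genes within 5 Mb as dashes and the biallelic range of 35 to 65% in grey. Bag3 ran from 0.135 to 99.9%, while Bag4 and Bag6 stayed between 44.9 and 53.9%.

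Bag3 (ENSMUSG00000030847.8, chromosome 7, 128523583 to 128546981 in GRCm38) had the largest distance of the 9 genes between its ratio and that of its surroundings. In astrocytes it was at 99.9% Cast in Astro_129 (99.7 to 99.95% by Wilson interval), 57.6% in Astro_C2, 64.9% in Astro_G4, 59.6% in Astro_mC3 and 0.135% in Astro_mE6 (0.0458 to 0.395%). The 2 monoallelic astrocyte clones thus used opposite alleles, with 4658 and 2228 allele-specific reads behind the ratios. In the poly(A) NPCs it was at 52.4% in NPC_F5, 48.7% in NPC_mG2 and 51.0% in NPC_mG6, all biallelic. In the Ch clones it was at 54.2% in Ch3, 75.5% in Ch5, 56.2% in Ch7 and 99.7% in Ch8. Ch8 was therefore monoallelic for Cast, Ch5 biased to Cast, and Ch3 and Ch7 biallelic. The libraries of a Ch clone gave ratios of 51.2 and 56.3% in Ch3, 79.1 and 72.4% in Ch5, 59.2 and 52.2% in Ch7, and 100 and 99.3% in Ch8.

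Genes within 5 Mb of Bag3 were balanced in every clone. Their median ratio lay between 49.1 and 51.3%, also in Astro_129 (50.7%), Astro_mE6 (50.3%) and Ch8 (50.4%), so that the monoallelic ratio of Bag3 did not extend to its neighbourhood. Across the Ch clones the Cast share of Bag3 differed beyond the spread of the libraries (adjusted p = 1.84e-41, edgeR quasi-likelihood test), as did that of Bag5, which makes 2 of the 7 genes of the family that could be tested, against 9.44% of all 10289 genes tested. Between the 2 libraries of a clone, Fisher's exact test called the ratio of 0 of 6 of these genes in Ch3 (background 1.94%), 0 of 7 in Ch5 (0.0304%), 0 of 7 in Ch7 (0.0604%) and 0 of 7 in Ch8 (0.113%). At an unadjusted p under 0.05, 1, 2, 1 and 1 of them passed, against 1441 of all 9618 genes tested in Ch3, 8.94% in Ch5, 8.50% in Ch7 and 10.6% in Ch8. The Cast share of Hspb8 across the Ch clones (adjusted p = 0.0750) was called without the first library of Ch5 (0.0268), over a range of 0.0268 to 0.872.

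**Figure D2:**
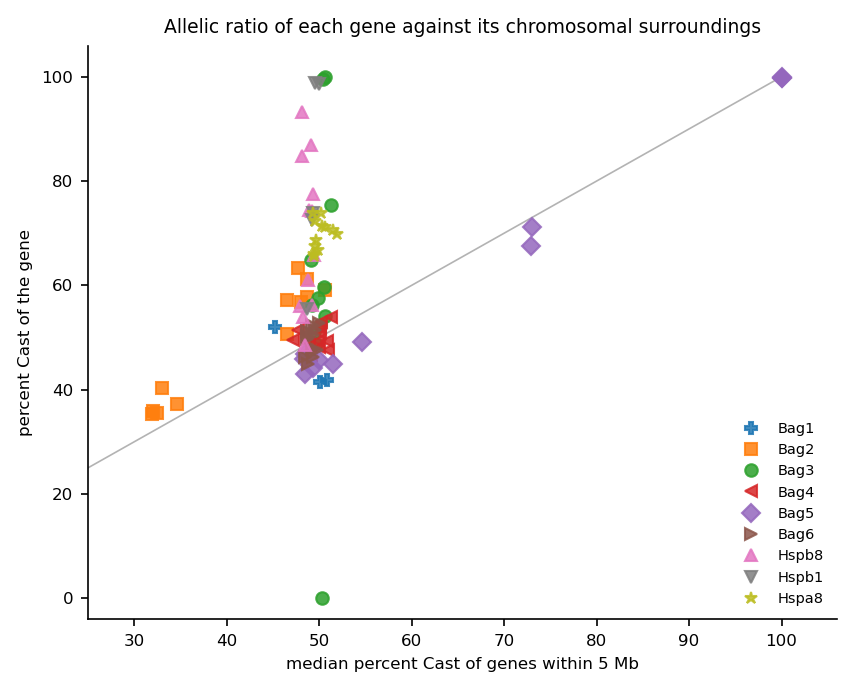
Percent Cast of each member in each clone against the median percent Cast of genes within 5 Mb. Bag3 lay up to 50.2 percentage points from its neighbours, and the values of Bag5 near 100% lay on the line of equality.

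The bases just before the start of Bag3 are shown beside those of Hspb8 and Hspb1 because the levels of these 2 partners ranged over larger folds than that of Hspa8. The sequences are 250 bases before the start from RefSeq (GRCm38.p6), at chr7:128523333-128523582 on the plus strand, chr5:116422865-116423114 on the minus strand and chr5:135887669-135887918 on the plus strand. Capitals mark matches of the motifs searched on both strands.
Bag3: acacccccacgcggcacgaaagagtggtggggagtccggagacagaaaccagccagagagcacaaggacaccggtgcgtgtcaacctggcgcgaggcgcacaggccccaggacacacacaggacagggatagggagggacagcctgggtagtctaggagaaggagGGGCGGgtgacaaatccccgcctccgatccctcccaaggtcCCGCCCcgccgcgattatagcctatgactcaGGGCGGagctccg
Hspb8: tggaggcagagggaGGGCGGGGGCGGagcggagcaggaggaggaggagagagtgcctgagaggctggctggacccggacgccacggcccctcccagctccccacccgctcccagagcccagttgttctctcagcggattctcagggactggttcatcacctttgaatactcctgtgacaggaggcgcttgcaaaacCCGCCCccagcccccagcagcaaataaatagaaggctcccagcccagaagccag
Hspb1: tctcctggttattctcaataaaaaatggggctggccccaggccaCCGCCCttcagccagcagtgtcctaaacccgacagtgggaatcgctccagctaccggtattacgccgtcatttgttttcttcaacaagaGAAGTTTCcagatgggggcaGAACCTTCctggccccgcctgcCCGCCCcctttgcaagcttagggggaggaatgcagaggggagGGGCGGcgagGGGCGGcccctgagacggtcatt
The table held promoters for 7 of the 9 genes, with Bag4 and Hspa8 as the others. The pair of inverted heat shock units GAANNTTC and TTCNNGAA was searched first, and the TATAAA box, the CCAAT box and the GC box GGGCGG were added after it gave no match in Bag3 or Hspb8. GAANNTTC, held by 6.69% of 32851 promoters, occurred in Hspb1 only, starting 117 and 97 bases before the start. TTCNNGAA, held by 7.17% of promoters, the TATAAA box, held by 12.4%, and the CCAAT box, held by 33.8%, had no match in any of the 7 in this window. GGGCGG, held by 32.7% of promoters, occurred 3 times in Bag3, 3 times in Hspb8, 4 times in Hspb1 and 3 times in Bag1, and it also occurred in Bag2, Bag6 and at the second start of Bag5. These matches are descriptions of the letters only.

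The level of Bag3 was then read beside its allelic state. In astrocytes it was 98.4 CPM in Astro_129, 259 in Astro_C2, 196 in Astro_G4, 113 in Astro_mC3 and 45.6 in Astro_mE6. The 2 monoallelic clones had the lowest levels, but the gap between Astro_129 and the biallelic Astro_mC3 was 1.15-fold, smaller than the 2.29-fold between the biallelic Astro_mC3 and Astro_C2. In the poly(A) NPCs, all biallelic, Bag3 was at 67.6 CPM in NPC_F5, 42.8 in NPC_mG2 and 54.5 in NPC_mG6. In the Ch clones it was at 21.0 CPM in Ch3, 16.7 in Ch5, 20.7 in Ch7 and 14.4 in Ch8, the monoallelic clone being the lowest. The libraries gave 19.9 and 22.1 CPM for Ch3, 14.1 and 19.4 for Ch5, 22.9 and 18.5 for Ch7, and 14.7 and 14.1 for Ch8. The values of Ch8 and Ch5 overlapped, while those of Ch8 lay below both libraries of Ch3 and Ch7. Group means were 142 ± 84.5 CPM in astrocytes (SD, n = 5), 55.0 ± 12.4 in poly(A) NPCs (SD, n = 3) and 18.2 ± 3.21 in the Ch clones (SD, n = 4).

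The output of each allele, taken as the level times its share of allele-specific reads, did not show a raised output of the remaining allele in the monoallelic astrocytes. The 129 allele gave 45.5 CPM in Astro_mE6, where it was the active one, and 110, 68.8 and 45.7 CPM in the biallelic Astro_C2, Astro_G4 and Astro_mC3. The Cast allele gave 98.3 CPM in Astro_129, within the 149, 127 and 67.4 CPM of the biallelic clones. The other allele had 5 of 4658 reads in Astro_129 and 3 of 2228 in Astro_mE6. In Astro_mE6 these were Cast reads, and 0.0882% of its X reads were wrongly assigned to Cast. For the 129 reads in Astro_129 no such rate was measured. These few reads are not taken as the output of the other allele. Among the Ch clones the Cast allele gave 11.4, 12.6, 11.7 and 14.3 CPM in Ch3, Ch5, Ch7 and Ch8. The 129 allele gave 9.61, 4.10 and 9.06 CPM in Ch3, Ch5 and Ch7. In Ch8 the 129 allele had 1 of 296 reads. The rate at which Cast reads were assigned to 129 was not measured, and this read is not taken as the output of that allele. The Cast output of Ch8 was the highest of the 4 clones, but that of the second library of Ch5 lay between those of the Ch8 libraries. With clones ordered by a measured ratio, and mostly with 1 library each, no test of level over allelic states was made.

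**Figure D3:**
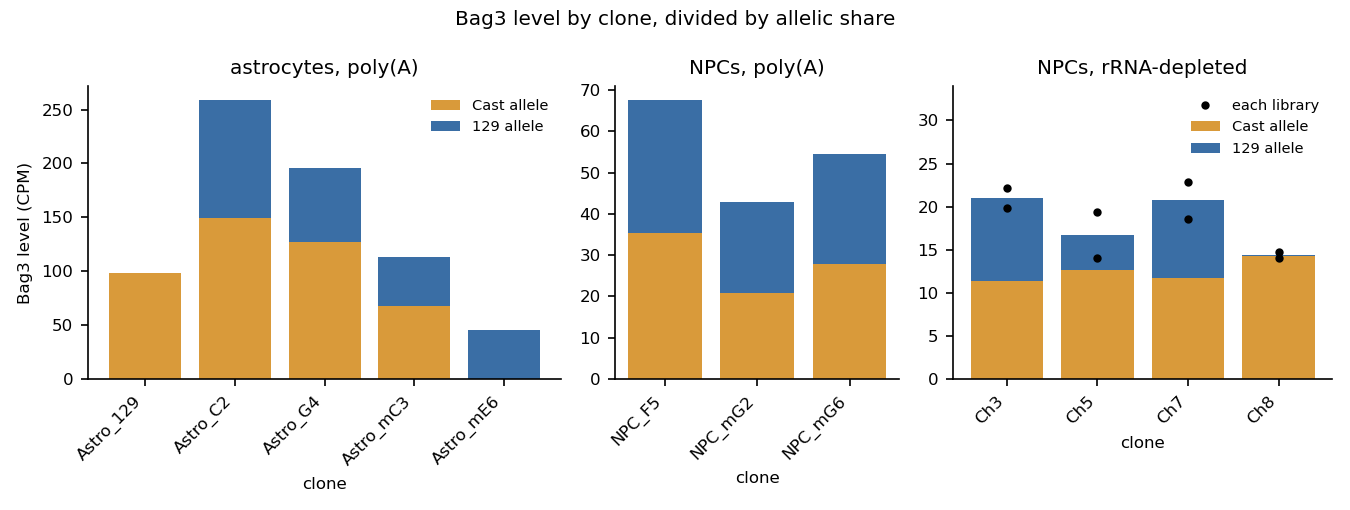
Bag3 level in CPM in each clone, split into the output of the Cast and of the 129 allele (stacked bars from 0; points, each Ch library), with a separate y axis for each library type. Astro_mE6, with the 129 allele only, had the lowest level of the astrocytes at 45.6 CPM, and Ch8, with the Cast allele only, the lowest of the Ch clones at 14.4 CPM.

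The Ch clones, with 2 libraries each, allowed a test of level between clones. Across the 4 clones 1 of the 9 genes differed, Hspb8 (adjusted p = 0.00224), against 16.6% of the 17095 genes tested. Bag3 did not pass (adjusted p = 0.0788), but passed with DESeq2 (adjusted p = 0.0375), without the filter on low counts (0.00105) and without either library of Ch5 (0.0436 and 0.0211), and its range over all alternatives was 0.00105 to 0.210. Without a library of Ch3 or of Ch7 the number of genes called fell from 2834 to between 1509 and 1868.

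In Ch8, with monoallelic Bag3, against Ch3, with biallelic Bag3, 2 of 9 genes were called against 13.7% of all genes. Bag3 was lower in Ch8, with a log2 fold change of -0.55 (SE 0.16, adjusted p = 0.0456), and Hspb8 higher (1.36, SE 0.24, adjusted p = 0.00428). The call on Bag3 was lost without either library of Ch3 (adjusted p = 0.0938 and 0.242), Ch7 (0.0532 and 0.0532) or Ch8 (0.0783 and 0.148), over a range of 0.00180 to 0.242 in all alternatives, with the same sign in each. That on Hspb8 was lost without the second library of Ch3 (0.0506, the highest of a range from 5.16e-08). Of Ch5 against Ch3, 1 of 9 was called (background 6.76%), Hspb8 at 1.09 (SE 0.24, adjusted p = 0.0242), a call lost without the second library of Ch3 (0.223) or either library of Ch5 (0.105 and 0.0655), over a range from 4.62e-05 to 0.223. Of Ch7 against Ch3, 1 of 9 was called (background 12.2%), again Hspb8 at 1.86 (SE 0.24, adjusted p = 0.000612), called under all alternatives with adjusted p up to 0.0104. The genes called in these pairs fell from 2342 to 1492 and 1074 in Ch8 against Ch3 without the first or second library of Ch3, from 1155 to 436 in Ch5 against Ch3 without the second library of Ch3 and to 648 and 641 without either of Ch5, and from 2090 to 1262 and 969 in Ch7 against Ch3 without either of Ch3 and to 1009 and 882 without either of Ch7.

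In the other pairs edgeR called 0 of 9: Ch7 against Ch5 (background 5.84%; 1 at an unadjusted p under 0.05, background 19.8%), Ch8 against Ch5 (4.53%; 0 unadjusted, 16.6%) and Ch8 against Ch7 (4.40%; 2 unadjusted, 15.9%). DESeq2 also called 0 in each of these pairs, with backgrounds of 6.12, 5.15 and 4.38%. The genes called by edgeR fell from 999 to 424 and 645 in Ch7 against Ch5 without either library of Ch5 and to 303 and 333 without either of Ch7, from 774 to 385 in Ch8 against Ch5 without the first of Ch5, and from 752 to 284 and 295 in Ch8 against Ch7 without either of Ch7. Hspb8 in Ch7 against Ch5 (0.77, SE 0.22, adjusted p = 0.0696) was called without the filter (0.00513), with a replicate block (0.0415) and without either library of Ch8 (0.0393 and 0.0385), over a range of 0.00513 to 0.297. In Ch8 against Ch7 the log2 fold change of Bag3 was -0.53 (SE 0.16, adjusted p = 0.108), a size like that against Ch3, and it was called without the filter on low counts (0.00429) and without either library of Ch5 (0.0461 and 0.0484), over a range of 0.00429 to 0.642. In Ch8 against Ch5 it was -0.22 (SE 0.16), and it turned to 0.03 without the second library of Ch5.

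Whether paralogs or partners were higher where Bag3 was low was read in Ch8 against each other Ch clone. Ch8 was the only Ch clone with monoallelic Bag3, so that clone and allelic state cannot be told apart. The intervals below rest on the spread between the libraries of a clone, not between clones. In Ch8 against Ch3 the log2 fold changes of the other BAG genes were 0.05 for Bag1, 0.13 for Bag2, -0.0043 for Bag4, 0.05 for Bag5 and -0.02 for Bag6, with 95% intervals that reached at most 0.36 upward, and that of Hspa8 was -0.01 (-0.33 to 0.31). The interval for Bag2 was -0.11 to 0.36, and for Bag1 -0.16 to 0.26, so that a rise of any of these paralogs by 0.55 on the log2 scale, the size of the change in Bag3, lay outside the intervals. Hspb1 was at 0.35 with an interval of -0.69 to 1.4, which holds a rise of that size. An equal log2 rise is not the amount that would replace the missing Bag3. Per kilobase of exon, Bag3 was at 8.10 CPM in Ch3 and 5.55 in Ch8, and the other BAG genes summed to 103 and 105. These sums were not tested. In Ch8 against Ch7 the values were 0.06 for Bag1, 0.16 for Bag2, 0.03 for Bag4, 0.10 for Bag5, 0.11 for Bag6, 0.08 for Hspa8, 0.08 for Hspb1 (-0.92 to 1.07) and -0.50 for Hspb8. In Ch8 against Ch5, where Bag3 differed less, they were -0.08 for Bag1, 0.21 for Bag2, -0.12 for Bag4, 0.06 for Bag5, 0.16 for Bag6, 0.18 for Hspa8, 0.79 for Hspb1 (-0.28 to 1.86) and 0.27 for Hspb8. In that pair a rise the size of the change in Bag3 (-0.22) lay outside the intervals of Bag1 and Bag4. It lay within those of Bag2 (-0.02 to 0.44), Bag5 (-0.14 to 0.26), Bag6 (-0.06 to 0.38) and Hspa8 (-0.14 to 0.50). Hspb8 was higher than in Ch3 in each of Ch5, Ch7 and Ch8. Against Ch3, the log2 fold change of Bag3 was -0.33 (SE 0.16) in Ch5, -0.02 (SE 0.16) in Ch7 and -0.55 (SE 0.16) in Ch8. Bag3 was biased to Cast in Ch5, biallelic in Ch7 and monoallelic in Ch8. Whether the level of Hspb8 follows that of Bag3 was not tested. Among the Ch clones Hspb8 was at 2.28 CPM in Ch3, 4.75 in Ch5, 8.11 in Ch7 and 5.74 in Ch8.

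In astrocytes levels between genes were compared per kilobase of exon. The other 5 BAG genes summed to 137 CPM per kb in Astro_129, 122 in Astro_C2, 143 in Astro_G4, 179 in Astro_mC3 and 183 in Astro_mE6. The sum was highest in Astro_mE6, which had the lowest Bag3, next in Astro_mC3 with biallelic Bag3, and second lowest in Astro_129. Bag1 alone gave 70.9, 59.6, 82.5, 126 and 127 CPM per kb in these clones, and without it the other 4 genes summed to 66.5, 62.7, 60.8, 52.9 and 55.2, with Astro_129 the highest and Astro_mE6 the second lowest. Bag3 itself made up 8.78% of the family per kb in Astro_mE6, 19.6% in Astro_mC3, 21.7% in Astro_129, 34.5% in Astro_G4 and 44.96% in Astro_C2. Hspb8 per kb was 74.0, 220, 161, 264 and 56.7 CPM in Astro_129, Astro_C2, Astro_G4, Astro_mC3 and Astro_mE6, lowest in the monoallelic clones and not raised there. Without replicates of these astrocyte clones none of these differences was tested. In Ch3, Ch5, Ch7 and Ch8 the other 5 BAG genes summed to 103, 102, 98.6 and 105 CPM per kb. Without Bag1 they summed to 67.7, 63.6, 63.8 and 68.8. Both sums were highest in Ch8, with monoallelic Bag3 and the lowest Bag3 of the Ch clones. Differences in these sums were not tested.

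**Figure D4:**
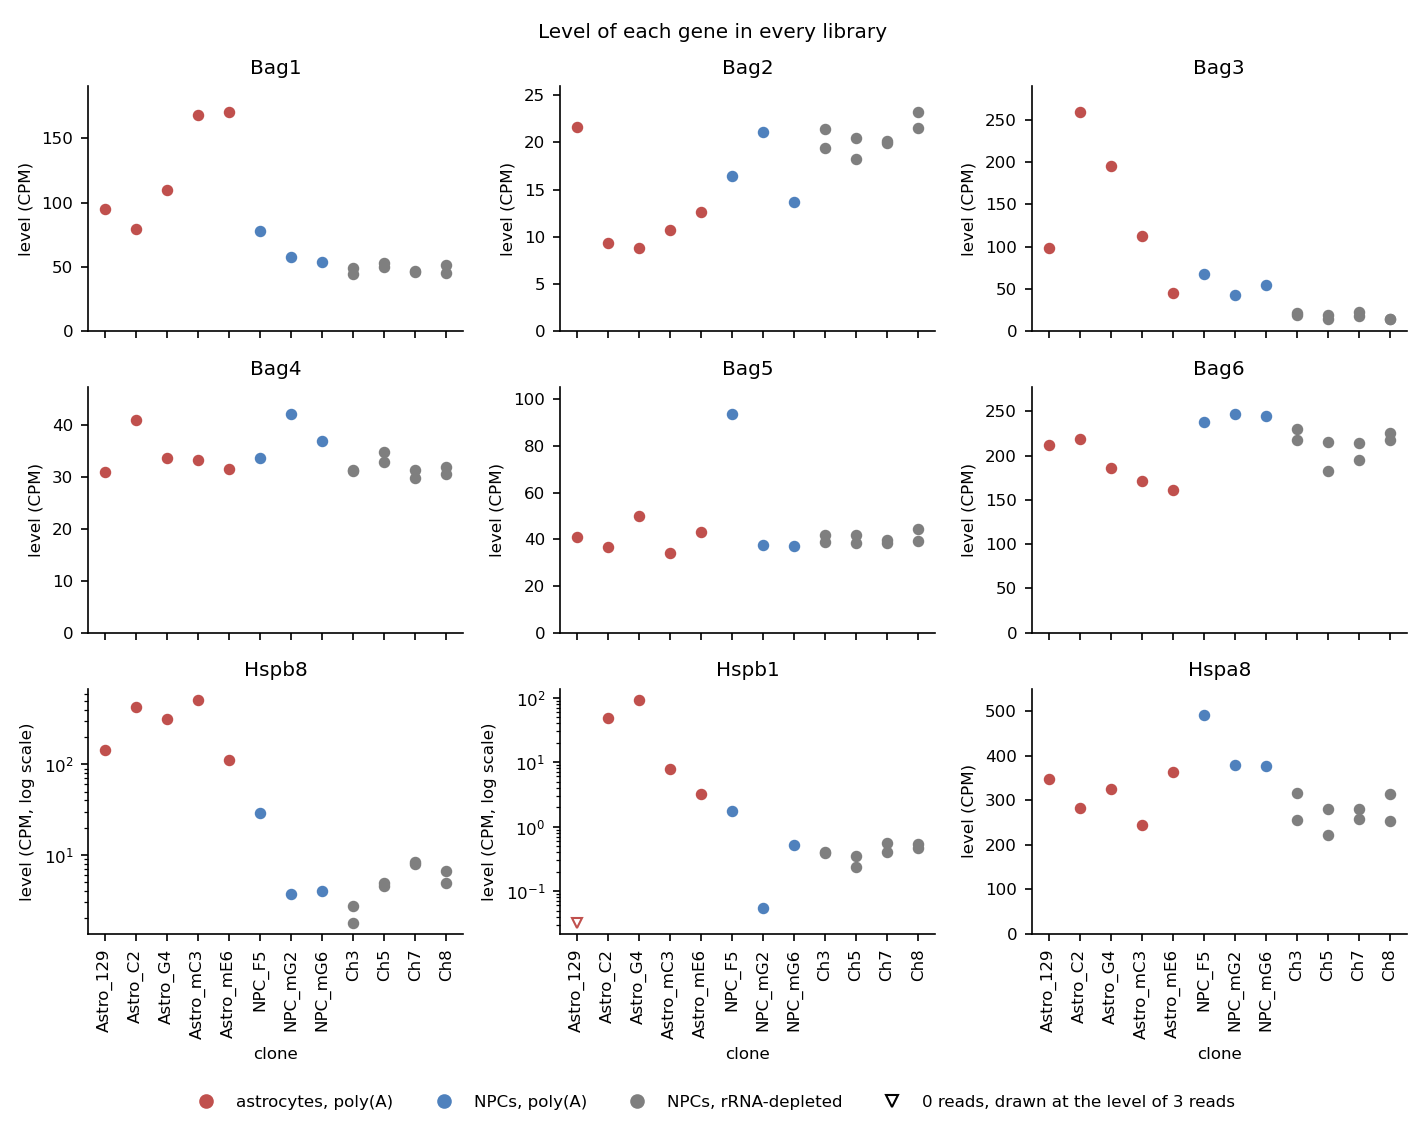
Level of each gene in CPM in each library, on linear axes from 0 except for Hspb8 and Hspb1, which have log axes. The open triangle marks Hspb1 in Astro_129, with 0 reads, drawn at the level of 3 reads.

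Astrocytes were compared with the poly(A) NPCs, 5 clones against 3, with the preparation in common. Of the 9 genes 2 were called, Bag1 and Hspb8, both higher in astrocytes, against 25.5% of 18192 genes, of which 2360 were higher and 2284 lower. At an unadjusted p under 0.05, 5 of the 9 passed, against 39.4% of all genes, and DESeq2 called 4, adding Bag3 and Hspb1, against 34.8% of 18054 genes. For how many of all genes the levels of the groups did not overlap was not counted, so that such separation is given below as a description only. In bulk RNA fewer cells of a type and less RNA per cell cannot be told apart. No clone was labelled as measured in both states, so that cell type, BMP4 treatment and clone cannot be told apart. Without NPC_F5, NPC_mG2 or NPC_mG6 the number of genes called fell from 4644 to 2667, 2269 and 3030.

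Hspb8, the small heat shock protein that binds Bag3, was at 144, 429, 315, 515 and 111 CPM in Astro_129, Astro_C2, Astro_G4, Astro_mC3 and Astro_mE6. In the NPCs it was at 29.0 CPM in NPC_F5, 3.68 in NPC_mG2 and 4.02 in NPC_mG6. The groups did not overlap, and the log2 fold change was 4.63 (SE 0.98, adjusted p = 0.0115, higher in 5 of 5 astrocytes), called under every alternative run with adjusted p up to 0.0433. NPC_F5 stood apart from the other NPCs, and without it the fold change was 6.29.

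Bag1, which links Hsp70 to the proteasome, was at 94.8, 79.7, 110, 168 and 170 CPM in the astrocytes and at 77.8, 57.5 and 54.2 CPM in the NPCs. The groups did not overlap, although Astro_C2 and NPC_F5 lay close together. Its log2 fold change was 0.98 (SE 0.30, adjusted p = 0.0436). The call was lost without Astro_G4, Astro_mC3 or Astro_mE6 (adjusted p = 0.0706, 0.0814 and 0.0881), without any of the 3 NPCs (0.0691, 0.146 and 0.161) and without the filter on low counts (0.0700), and its direction stayed. It was also lost without Astro_129, Astro_G4 and NPC_F5 together (1.32, adjusted p = 0.0695), over a range of adjusted p from 0.0189 to 0.161.

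Bag3 was at 45.6 to 259 CPM in astrocytes and at 42.8 to 67.6 in poly(A) NPCs, and the groups overlapped through Astro_mE6. Its log2 fold change was 1.37 (SE 0.52, 95% interval 0.20 to 2.55, adjusted p = 0.0832). It was called with DESeq2 (adjusted p = 0.0347) and without Astro_mE6 (0.0280), over a range of 0.0280 to 0.234 in all alternatives.

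Hspb1, the other small heat shock protein, had 0 reads in Astro_129, which allows up to 0.0322 CPM, and 49.1, 92.5, 7.79 and 3.26 CPM in Astro_C2, Astro_G4, Astro_mC3 and Astro_mE6. In the poly(A) NPCs it was at 1.75, 0.0540 and 0.517 CPM in NPC_F5, NPC_mG2 and NPC_mG6. All astrocytes but Astro_129 were above all NPCs, and the fitted log2 fold change was 5.29 (SE 2.27, adjusted p = 0.119), which was called without Astro_129 (adjusted p = 0.0351) and with DESeq2 (0.0255), over a range of 0.0255 to 0.265. The log2 fold changes of the remaining genes were -0.14 for Bag4, -0.36 for Bag6, -0.41 for Hspa8, -0.43 for Bag2 and -0.45 for Bag5, and none was called.

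**Figure D5:**
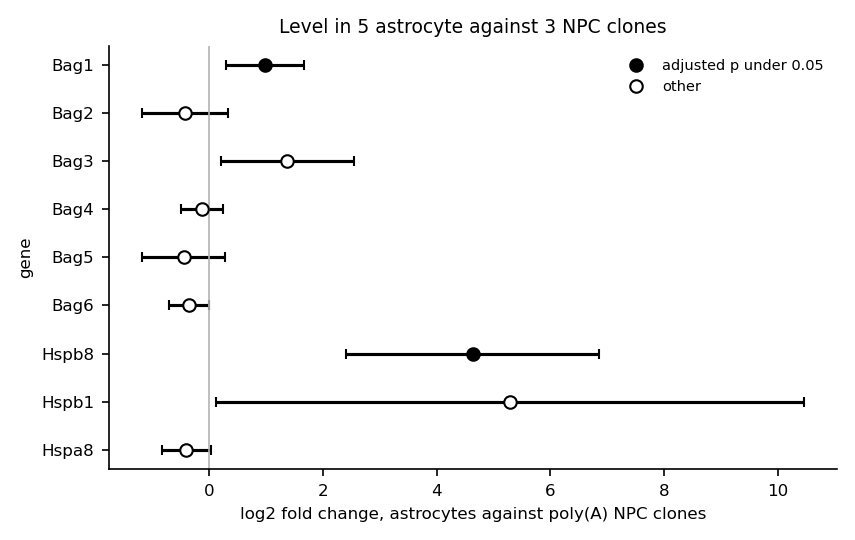
Log2 fold change of each gene between astrocytes (5 clones) and poly(A) NPCs (3 clones), with 95% intervals as bars and filled points for adjusted p under 0.05. Hspb8 and Bag1 are filled, with 4.63 and 0.98.

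Bag5, which has several BAG domains, changed in ratio beside levels that lay close together in the Ch clones. In the Ch clones it was at 45.7% Cast in Ch3, 99.8% in Ch5, 99.8% in Ch7 and 100% in Ch8, where 0 of 485 allele-specific reads came from the 129 allele (Wilson 99.2 to 100%). Unlike Bag3, its neighbours had a median ratio of 100% in Ch5, Ch7 and Ch8, and so had the genes in each 20 Mb stretch of chromosome 12, with medians of 99.9 to 100%. The level was 40.3, 40.2, 39.1 and 41.9 CPM in Ch3, Ch5, Ch7 and Ch8, and the libraries of the clones overlapped. In Astro_G4 and NPC_F5 it was at 67.6 and 71.1% Cast, with neighbour medians of 72.9 and 73.1%, and the genes from 80 Mb on of chromosome 12 had medians of 71.4 to 73.5%. NPC_F5 had 93.9 CPM of Bag5 against 37.8 and 37.1 in NPC_mG2 and NPC_mG6, and the median level of the genes around it was 1.93 times that in the other 2 clones. In Astro_G4, with 50.1 CPM of Bag5 against 34.4 to 43.1 in the other astrocytes, the level of the genes around it was 1.60 times that in the other clones. Without NPC_F5 the fold change of Bag5 between cell types was 0.13 in place of -0.45.

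Bag2, which inhibits the ligase Stub1, was at 35.4 to 40.2% Cast in the 4 Ch clones and at 37.3% in Astro_129, while the other clones were at 50.7 to 63.3%. Its neighbours were at 31.9 to 33.0% in the Ch clones and 34.6% in Astro_129, and the other genes of chromosome 1 at 30.5 to 35.9% in all stretches of 20 Mb in these 5 clones. Astro_129 also had 21.6 CPM of Bag2 against 8.88 to 12.7 in the other astrocytes, and the median level of the genes around it was 1.45 times that in the other 4 clones. The copy number of these chromosomes was not measured, and its part in these values was not tested.

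Hspa8 is the constitutive Hsp70 and a chaperone that typical BAG proteins act on. It was biased to Cast in all 12 clones, at 65.7 to 74.0%, with neighbours at 49.4 to 52.0%. Reads shared with copies of near-identical sequence, such as its processed pseudogenes, were not measured, and its counts are given as uncertain. The Cast allele was above the 129 allele in astrocytes by 1.17 on the log2 scale (SE 0.06, adjusted p = 0.000562), with 1 of 7 genes called against 31.1% of all genes tested, whose 3258 calls fell to 1975 without Astro_mC3 and 2019 without Astro_mE6. In NPCs it was above it by 1.25 (SE 0.09, adjusted p = 7.66e-05), with 2 of 7 genes called against 40.5%. The other gene called in NPCs was Hspb8, at 0.96 (SE 0.31, adjusted p = 0.0425), a call lost without any 1 of Ch3, Ch5, Ch7, Ch8, NPC_F5 or NPC_mG2 (adjusted p = 0.0586, 0.0690, 0.0726, 0.0560, 0.106 and 0.0892) and in the Ch or poly(A) clones alone, over a range of 0.0295 to 0.193. Bag2 was called toward Cast in astrocytes without Astro_129 (0.58, adjusted p = 0.0172, range 0.0172 to 0.643), and toward 129 in the 4 Ch clones alone (-0.79, adjusted p = 0.00128, range 0.00128 to 0.504). Bag6 was called toward 129 in NPCs without Ch8 (-0.16, adjusted p = 0.0457, range 0.0457 to 0.353). In astrocytes Hspb8 was at 54.0 to 93.3% Cast, with Astro_G4 (93.3%) and Astro_mC3 (86.9%) monoallelic by the limits and the log2 difference at 1.88 (SE 0.59, adjusted p = 0.0639). Hspb1 was at 98.6% in Astro_mC3 and 98.7% in Astro_mE6, against 73.8% in Astro_C2 and 72.5% in Astro_G4. The Cast share differed between the cell types for 0 of the 7 genes by edgeR, against 1.08% of 10083 genes (0 at an unadjusted p under 0.05, against 15.1%). The 109 genes called fell to 53, 61 and 21 without Astro_C2, Astro_mC3 or Astro_mE6 and to 5, 21 and 23 without NPC_F5, NPC_mG2 or NPC_mG6.

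Bag4, a silencer of death receptor signalling, was at 46.6 to 53.9% Cast in the 12 clones, with levels of 30.9 to 41.0 CPM in astrocytes and 33.5 to 42.2 in poly(A) NPCs. Bag6, which helps insert tail-anchored proteins into membranes, was at 44.9 to 52.8%. Its levels were 161 to 219 CPM in astrocytes and 238 to 247 in poly(A) NPCs. They did not overlap, but edgeR did not call the gene (-0.36, SE 0.15, adjusted p = 0.122). Bag1 had too few allele-specific reads in 9 clones, with 2 to 15, and ratios of 41.4 to 52.0% in the others.

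The wider chaperone lists were read by their counts in astrocytes against poly(A) NPCs, beside the 13.0% of all genes called higher and 12.6% called lower, 25.5% together. Of the small heat shock proteins 4 of 7 tested were higher and 0 lower, among them Hspb8, Hspb7 (4.61, SE 1.16, at most 1.48 CPM) and Hspb2 (1.97, SE 0.40), with a median of 1.97 against 0.08 over all genes. Of the Hsp70 family 5 of 15 were higher and 0 lower, with a median of 0.0072, the largest being Hspa1l (2.37, SE 0.61, at most 0.912 CPM), Hspa12a (2.12, SE 0.62) and the heat-inducible Hspa1a (1.90, SE 0.43). Of HSF1 regulators and heat shock targets 3 were higher and 9 lower of 20, with a median of -0.57, and the largest changes called were those of Hspa1a, Hspa1b (1.60, SE 0.40) and Dnajb4 (1.29, SE 0.26). Of the other nucleotide exchange factors 0 of 8 were called.

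Of the genes of chaperone-assisted selective autophagy 9 of 24 were higher and 1 lower, with a median of 0.06, where 13.0% of all genes were higher and 12.6% lower, with a median of 0.08. Synpo2, which binds Bag3 in this route, was at 24.4 to 149 CPM in astrocytes and at 0.437 to 0.788 CPM in poly(A) NPCs (log2 fold change 7.04, SE 0.83), Wipi1 was higher by 2.0 (SE 0.38), and Synpo was lower at -5.04 (SE 0.75). Of the Bag6 complex 1 of 4 was lower (Rnf126, -0.70, SE 0.19), and of the Bcl2 family 1 of 8 (Bcl2, -1.46, SE 0.18). 

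Markers of other cell types were read in the same comparison. Of microglia markers 1 of 2 tested was higher, Tmem119, and the 5 listed summed to 5.03 to 21.1 CPM in astrocytes, mostly from Tmem119 (3.52 to 20.3 CPM), and 0.279 to 0.566 in poly(A) NPCs. Aif1, Cx3cr1 and C1qa were at 0 to 0.0643 CPM in astrocytes, with 1 or 2 of them at 0 in each astrocyte clone. Both endothelial markers tested were higher, Kdr and Pecam1, and the 4 listed summed to 18.2 to 105 CPM in astrocytes, nearly all from Kdr, and to 0.938 to 2.96 in poly(A) NPCs. Of fibroblast markers 1 of 5 was higher, Col1a1, and the 6 listed summed to 232 CPM in Astro_C2 to 6.83 to 42.5 in the other astrocytes and to 4.52 to 15.4 in poly(A) NPCs, so that Astro_mE6 at 6.83 lay within the NPCs. Col3a1 was lower in astrocytes without a call (-2.60, SE 0.95). Of neuron markers 1 of 6 was higher, Snap25, of pluripotent cell markers 2 of 4 were lower, and 0 of 3 oligodendrocyte and 0 of 2 muscle markers were called by edgeR. Muscle markers summed to at most 2.66 CPM in astrocytes. The part of these cell types in the results was not tested.

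The genes whose levels were most like Bag3 over the 12 clones, centred within the 3 library types and among 9700 genes, were Ube3b (Pearson's r = 0.977), Pik3r4 (0.954), Arhgap1 (0.946), Mcart1 (0.936) and Cul7 (0.927). Bag3's own relations were 0.72 with Hspb1, 0.58 with Bag6, 0.57 with Hspb8, 0.42 with Bag4, 0.15 with Bag5, -0.26 with Hspa8, -0.51 with Bag2 and -0.59 with Bag1. These are descriptions over 12 clones that share their library type, with no test, and 355 of the genes had a higher value than Hspb1.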

How the data were processed

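RNA-seq was analysed from tables the authors deposited, with 1 table per library. Per the file headers and methods of the study, the authors aligned reads to GRCm38 with strain variants masked (TopHat2 2.1.0, Bowtie2), assigned them to alleles with SNPsplit and counted read pairs per gene and strand with featureCounts 1.5.1. The deposited values are raw counts of all reads, Cast reads and 129 reads, and a fraction of Cast reads over both alleles, which the authors left out for genes with under 10 such reads. Symbols were found for 32722 of 50600 genes and RefSeq positions for 25940.

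Levels were tested with edgeR 4.0.16 in R 4.3.3 (TMM, filterByExpr, quasi-likelihood F test) and, as an alternative, DESeq2 1.42.0. Allelic counts were tested as paired columns in edgeR with library terms, over autosomal genes with at least 20 allele-specific reads. Fisher's exact test (two-sided) compared the 2 libraries of a Ch clone. All p-values were adjusted by Benjamini-Hochberg over all genes tested, with an adjusted p under 0.05 as threshold. The fits were tested on simulated data. Wilson intervals are at 95%, and a count of 0 allows up to 3 reads. Members and lists were chosen with earlier results of these data known. The genes named are the 9 members in every comparison, up to 3 of each list with the largest fold change among those called, and the 5 genes most like Bag3 (log2 of CPM plus 1, mean CPM of at least 5). Clones were not averaged by allelic state. Alternatives were other size factors, no filter, a sex term, other read minimums and limits, a replicate block and leaving out each library. Analyses without Astro_129, Astro_G4 and NPC_F5, and without genes of chromosomes 1 and 12, were added after seeing the data.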

Additional observations from a re-analysis of the deposited data

Results flagged for a closer look

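Levels were examined in the astrocytes and the Ch clones, and ratios in the astrocytes, all NPC clones and, added after seeing the data, the Ch clones alone. Of these 40 groups of clones, 5 held a clone whose gap to the nearest other clone was large for the range of its group, where chance gives about 1 in 20 such groups. Among the astrocytes, Bag2 was at 37.3% Cast in Astro_129, far below the other clones. Bag4 was at 41.0 CPM in Astro_C2, far above the others. Bag5 was at 67.6% Cast in Astro_G4, far above the others. Among the Ch clones, Bag2 was at 40.2% Cast in Ch7, above the others, but its libraries, at 39.95 and 40.5%, lay within those of Ch8 (30.2 and 41.4%), and the Cast share did not pass the test across the Ch clones (adjusted p = 0.794). Bag5 was at 45.7% Cast in Ch3, far below the others.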

How the results depend on the processing

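Alternatives to the processing were run for the comparisons between clones, cell types and alleles, and not each of them for every comparison. They were other size factors, no filter on low counts, DESeq2, a sex term, other read minimums, a replicate block and leaving out each library. The Ch clones are all male, so that no sex term applied among them. For Fisher's tests between the 2 libraries of a Ch clone no alternative was run. Of the values of single genes, 1063 kept their direction and their side of the threshold, 26 lost a call, 19 gained one, 5 moved beyond their error and 63 changed sign. The sign changes concerned 34 results, of which the largest was a log2 value of 0.63, and none of the 63 values was called in either of the fits compared, with an adjusted p of 0.0634 or more in the alternative. Of the counts, 206 stayed within 1.5 times the value reported and 76 did not. An alternative in which a gene passed no filter gave no value for it. Except where fewer libraries or genes entered a fit, the cause was not tested.

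Without the filter on low counts, genes called numbered 4361 across the Ch clones, 1898 in Ch5 against Ch3, 1583 in Ch7 against Ch5, 1300 in Ch8 against Ch5 and 1162 in Ch8 against Ch7. Family genes called were then 1 in astrocytes against poly(A) NPCs, 2 across the Ch clones, 1 in Ch7 against Ch5 and 1 in Ch8 against Ch7. Log2 fold changes that changed sign were 0.014 for Bag5 in Ch5 against Ch3, 0.0060 for Bag1 in Ch7 against Ch3, and 0.015 for Bag4, 0.0042 for Bag6 and 0.0093 for Hspa8 in Ch8 against Ch3. DESeq2 called 4 family genes in astrocytes against poly(A) NPCs and 2 across the Ch clones.

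Some alternatives were chosen after seeing the data. Without Astro_129, Astro_G4 and NPC_F5, 2780 genes and 1 family gene were called in astrocytes against poly(A) NPCs, and Bag5 was at 0.028. Without genes of chromosomes 1 and 12, 481 genes and 1 family gene were called in the Cast share across the Ch clones. For Cast against 129 in NPCs, the 3 poly(A) clones alone gave 2179 genes and 1 family gene called, with 0.32 for Bag2 and 0.042 for Bag4. A minimum of 50 reads, or leaving out Ch3, Ch5 or Ch7, also left 1 family gene called, and Bag4 was at 0.012 without Ch5.

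With the library number as a replicate block, 69 values of family genes kept their side of the threshold, and 1 family gene, Hspb8, became called in Ch7 against Ch5. Correlations between clones of the difference between their libraries ran from -0.28 to 0.42, and the paired fit was not used for the report.

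Leaving out each library in turn gave ranges of log2 values and of counts, where a clone left with 1 library was assumed to vary like the others. In astrocytes against poly(A) NPCs, the range was 2269 to 4849 for genes called, 1 to 3 for family genes called and -0.75 to 0.13 for Bag5. In the level across the Ch clones, the range was 1509 to 3244 for genes called and 1 to 2 for family genes called. In Ch5 against Ch3, the range was 436 to 1550 for genes called, 0 to 1 for family genes called, -0.16 to 0.012 for Bag2 and -0.055 to 0.057 for Bag5. In Ch7 against Ch3, the range was 882 to 2476 for genes called, -0.092 to 0.075 for Bag1, -0.092 to 0.052 for Bag2, -0.18 to 0.13 for Bag3, -0.064 to 0.0032 for Bag4, -0.088 to 0.0066 for Bag5 and -0.22 to 0.073 for Hspa8. In Ch8 against Ch3, the range was 1074 to 2441 for genes called, 0 to 2 for family genes called, -0.035 to 0.15 for Bag1, -0.032 to 0.042 for Bag4, -0.023 to 0.14 for Bag5, -0.053 to 0.032 for Bag6 and -0.16 to 0.15 for Hspa8. In Ch7 against Ch5, the range was 303 to 1280 for genes called, 0 to 1 for family genes called, -0.035 to 0.14 for Bag2, -0.10 to 0.013 for Bag5, -0.080 to 0.16 for Bag6 and -0.061 to 0.28 for Hspa8. In Ch8 against Ch5, the range was 385 to 645 for genes called, -0.18 to 0.0099 for Bag1, -0.43 to 0.028 for Bag3 and -0.023 to 0.15 for Bag5. In Ch8 against Ch7, the range was 284 to 737 for genes called, 0 to 1 for family genes called, -0.026 to 0.16 for Bag1, -0.0025 to 0.074 for Bag4, -0.14 to 0.32 for Hspb1 and -0.075 to 0.22 for Hspa8. In Cast against 129 in astrocytes, the range was 1975 to 3041 for genes called, 1 to 2 for family genes called, -0.36 to 1.61 for Bag3, -0.017 to 0.075 for Bag4 and -0.23 to 0.11 for Bag5. In Cast against 129 in NPCs, the range was 1 to 2 for family genes called. In the Cast share between cell types, the range was 5 to 105 for genes called, -0.15 to 0.26 for Bag2, -0.40 to 1.57 for Bag3, -0.059 to 0.033 for Bag4 and -0.54 to 0.31 for Bag5.

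Depth limits the Ch clones most, where Bag3 had 296 to 496 allele-specific reads and Hspb8 32 to 126. Bag1 gave a ratio in 3 astrocyte clones and in no NPC clone. Its allele-specific reads were few in the deeper libraries too, with 15 beside 8380 reads in NPC_F5 and 13 beside 15372 in Astro_mE6.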
